A study of Homo sapiens with 9 samples.

Results

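The 7 genes described here are PGRMC2, CLTCL1, ENPP1, NECTIN1, RFX1, KRT8P41 and FAM222A-AS1. They were picked from 26625 genes because their reads were few in HEK293T libraries primed with plain oligo(dT) and many in HEK293T libraries primed with anchored oligo(dT). Read levels in those 6 libraries therefore chose the genes, no numeric limit was set, and the difference between the primer classes is given below as a description. No p-value is given for it in these genes, and whether a fit called them supports nothing, since the choice fixed it. Levels in the A549 library, the other entries and neighbours of each gene, related genes and the reference sequence took no part in the choice.

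The libraries were made by CLT-seq, a ligation-based protocol in which total RNA is reverse transcribed from an adaptor-flanked oligo(dT) primer. HEK293T is a human embryonic kidney line transformed with adenoviral genes and carrying the SV40 large T antigen, and A549 is a human lung carcinoma epithelial line. Both are labelled wild type and were grown without any treatment. HEK293T had 1 library with gene counts for each of the primers T12, T18 and T30 (unanchored: 12, 18 or 30 T) and T18V, T18VN and T18VNN (anchored: 18 T followed by 1, 2 or 3 further bases), and A549 had 1 library with T12. The labels also name another T12 biological replicate of each cell line, which has no gene counts. Gene counts exist for a single HEK293T library per primer. The primers of a class therefore stand in for replicates, and any class mean ± SD is over 3 primers. The series text lists the primer with 2 anchor bases once under the name T12VN, but its printed sequence has 18 T.

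An oligo(dT) primer can pair anywhere along a poly(A) tail or on a run of A inside an RNA. An anchored primer carries V, which is any base but T, directly after its run of T. V can pair only with a base other than A, so on a polyadenylated RNA it places the primer at the junction between the transcript body and the tail, and any further anchor bases face the transcript body. Tails are added downstream of a hexamer, most often AATAAA or ATTAAA, that the cleavage machinery recognises. The T18 primer is shown 5′ to 3′, with its run of T in capitals, because the contrast between the classes rests on its end: T18V, T18VN and T18VNN add V, VN or VNN after the last T, where N is any base.
T18: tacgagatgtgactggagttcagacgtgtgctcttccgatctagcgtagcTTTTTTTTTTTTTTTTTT

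The ends of the reference transcripts are shown because they are where an anchored primer would meet each RNA. They come from the GENCODE release 29 transcripts (GRCh38), taking the longest transcript of each gene. Each line gives 30 bases in the sense direction, 5′ to 3′, ending at the last base that is not A, with the hexamer in capitals.
PGRMC2: aAATAAAcagtgttctgtagataattcctc
CLTCL1: tcataaatATTAAAgtcggtttatccaggc
ENPP1: tgtggatgttcaAATAAAacatacgtacag
NECTIN1: gtacttttttataAATAAAgtgtttaaaac
RFX1: ctttcttaaaacAATAAAttccgctgtgat
KRT8P41: cttctccaggtccatggttgtgaagaaggt
FAM222A-AS1: tgccctgtcacccaggctggggtacggtgg
The 5 protein-coding genes had a hexamer, starting 17 to 29 bases before the last base other than A. KRT8P41 and FAM222A-AS1 had neither AATAAA nor ATTAAA within 50 bases of that base. Over 10380 tested genes with a matched transcript, 75.7% had 1 of these hexamers (sense strand) in the same 50 bases, so 5 of 7 is close to the share over all genes. The reference transcript of KRT8P41 is 1514 bases long and the entry counted by the authors 1828, so the printed end may not be the end of the RNA that was counted. The last base other than A, which the V of an anchored primer would face, was C in 3 genes, G in 2 and T in 2, against 34.4%, 28.5% and 37.1% over the tested genes.

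Long runs of A inside the transcript were present in a share of these genes close to that over all genes. A run of at least 10 A was present in 2 of the 7 longest transcripts, ENPP1 with 10 and RFX1 with 14, and in 26.5% of the tested genes. The run of ENPP1 lies 4149 bases and that of RFX1 4130 bases upstream of the 3′ end. NECTIN1 has a run of 9 A that lies 66 bases upstream of its end. The longest run was 7 A in PGRMC2, 6 in CLTCL1 and 4 in KRT8P41 and FAM222A-AS1, and the median over both the 7 genes and the tested genes was 7. Among all GENCODE transcripts of ENPP1, the longest run was 29 A.

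Read totals per library ran from 7491993 to 25578543, of which 1498224 (A549) to 5200705 (HEK293T T18) were on genes. Levels are counts scaled to 1000000 reads on genes (CPM), and 3 reads, the detection floor, correspond to 0.577 to 2.00 CPM. Library totals of the 3 anchored libraries all lay below those of the 3 unanchored ones. A pair of HEK293T libraries stood apart from the rest: in T18 a single zinc finger gene, ZNF557, took 7.20% of the gene reads, and in T18VNN 33.7% of the coverage fell in the first 20 percentiles of transcripts, where 4 other HEK293T libraries had 2.61% to 3.16%. T18VN was not compared on coverage. Values without T18 and without T18VNN are given below. The cell line labels were checked on marker genes: all 12 A549 markers were at least 2-fold higher in A549 than in HEK293T T12, and of 9 HEK293T markers with enough reads 6 were lower in A549 by that margin and 2 were higher.

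**Figure D1:**
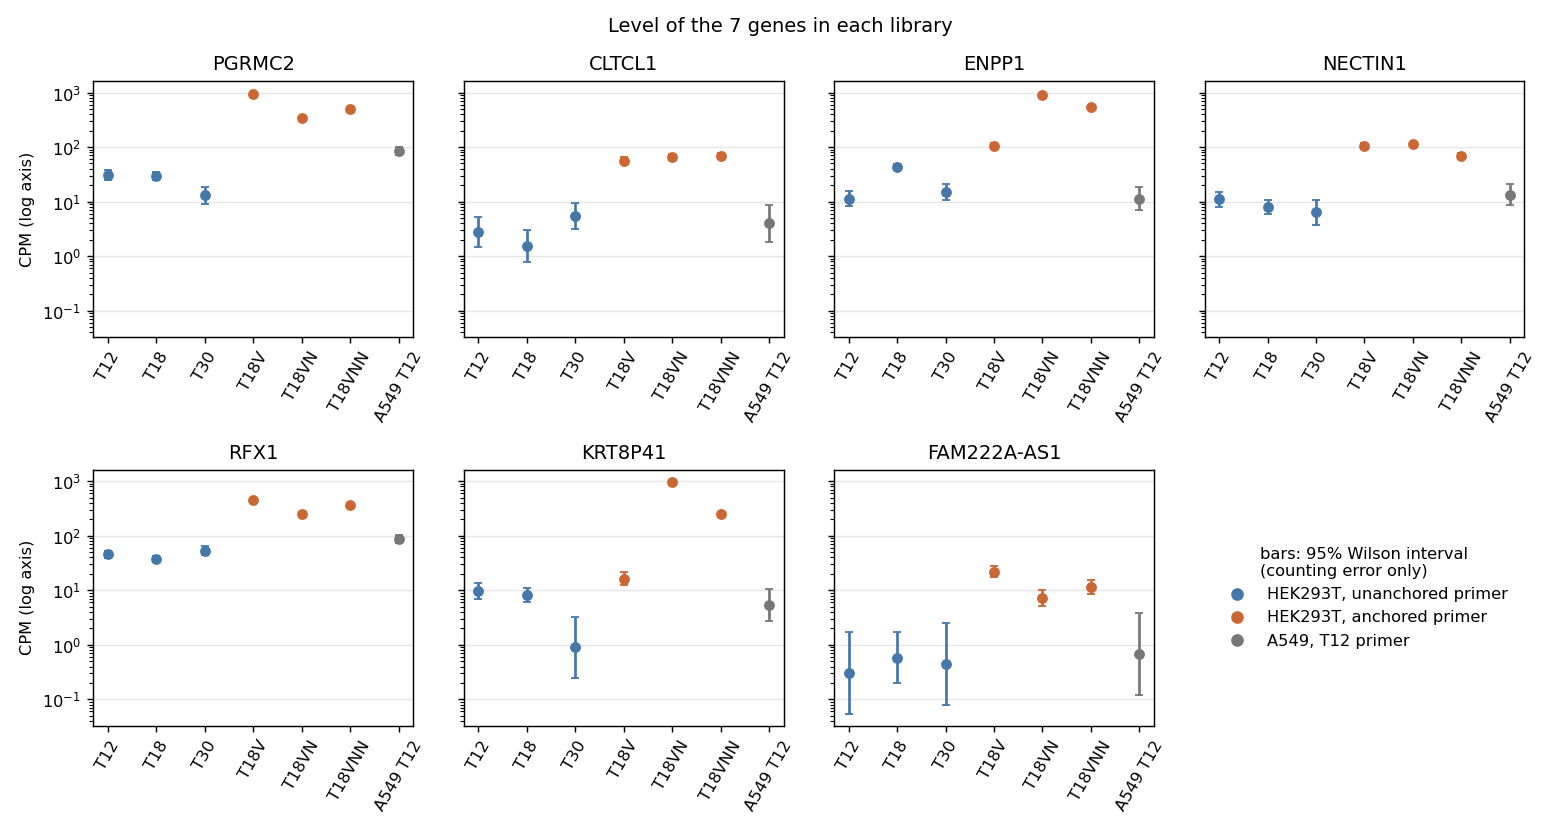
CPM on a log axis for each of the 7 genes in the 6 HEK293T libraries (blue, unanchored; orange, anchored) and in A549 T12 (grey); points are single libraries and bars are 95% Wilson intervals, which cover counting error only. In all 7 genes every orange point lies above every blue point, and the grey point lies below every orange point.

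In all 7 genes the 3 anchored HEK293T libraries lay above the 3 unanchored ones, as the choice of the genes required. Of 10887 genes that passed the filter on low counts, 16.8% were separated in this direction, and 0.781% were called higher with anchored primers (edgeR's quasi-likelihood test, Benjamini-Hochberg adjusted p under 0.05). All 7 passed the filter and were among the 85 genes so called, at ranks 1, 4, 5, 6, 7, 10 and 18 by fold change, which follows from how they were picked and is read no further. Together they took 94.3 to 129 CPM in the unanchored libraries and 1713 to 2645 CPM in the anchored ones. Their median log2 fold change was 4.27, where the median of all tested genes was -0.00.

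PGRMC2 encodes a membrane-bound haem-binding protein of the progesterone receptor membrane component family, which carries haem within the cell. It lies on chromosome 4 (129190392 to 129209984, minus strand, hg19) with a single deposited entry of 3790 bases. It had 100 reads (30.6 CPM) with T12, 153 (29.4 CPM) with T18 and 29 (13.1 CPM) with T30. With an anchor it had 2690 reads (957 CPM) in T18V, 1530 (341 CPM) in T18VN and 1789 (497 CPM) in T18VNN. T18V stood highest, 2.80 times the level of T18VN, and the lowest anchored library was 11.2 times the highest unanchored one. Its log2 fold change between the classes was 4.45 (SE 0.49).

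RFX1 encodes a winged-helix transcription factor that binds X-box elements. It lies on chromosome 19 (14072342 to 14117134, minus strand) with 1 entry of 4377 bases. It had 149 reads (45.6 CPM) with T12, 196 (37.7 CPM) with T18 and 118 (53.2 CPM) with T30, the least variable unanchored levels of the 7 genes (1.41-fold from lowest to highest). Anchored libraries held 1262 reads (449 CPM) in T18V, 1114 (249 CPM) in T18VN and 1296 (360 CPM) in T18VNN. RFX1 thus had the highest unanchored mean of the 7 genes, 45.5 ± 7.78 CPM (SD, n = 3), and the smallest log2 fold change, 2.78 (SE 0.35). The gene next to it, DCAF15 on the opposite strand, lies 80 bases beyond its 3′ end. DCAF15 had 31, 14 and 18 reads with T12, T18 and T30 and 17, 39 and 22 with T18V, T18VN and T18VNN. Its unanchored and anchored counts thus overlapped.

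NECTIN1 encodes nectin-1, an immunoglobulin-type adhesion molecule of adherens junctions. Its main entry lies on chromosome 11 (119531702 to 119599435, minus strand). On this entry it had 36 reads (11.02 CPM) with T12, 41 (7.88 CPM) with T18 and 14 (6.32 CPM) with T30. It had 297 (106 CPM) in T18V, 519 (116 CPM) in T18VN and 247 (68.7 CPM) in T18VNN. The lowest anchored library was 6.23 times the highest unanchored one, and the log2 fold change was 3.35 (SE 0.40).

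NECTIN1 is the only one of the 7 genes whose deposited entries differ in their reads, which places the reads along the gene. The gene has 3 entries that share their 5′ part and end in different last exons. The entry NM_203285.1, which ends furthest downstream, had 0 reads in all 7 libraries, and NM_203286.1 had 18 reads in T12 and 0 to 2 in the other 6. The reference transcripts of NM_002855.4 and NM_203285.1 share a stretch of 1005 bases, after which NM_002855.4 goes on for 4304 bases of its own. If a read is counted for every entry whose exons it overlaps, no read was counted on the shared stretch, and the reads of NM_002855.4 lie on sequence that NM_203285.1 lacks. The 18 reads of NM_203286.1 in T12 likewise lie on sequence that NM_203285.1 lacks, and whether they are also counted among the 36 reads of NM_002855.4 is not given.

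CLTCL1 encodes CHC22, the second human clathrin heavy chain, which takes part in the sorting of the glucose transporter GLUT4. It lies on chromosome 22 (19166986 to 19279239, minus strand), and its 2 entries held the same reads. It had 9 reads (2.76 CPM) with T12, 8 (1.54 CPM) with T18 and 12 (5.42 CPM) with T30. It had 159 (56.6 CPM), 295 (65.8 CPM) and 245 (68.1 CPM) in T18V, T18VN and T18VNN. Anchored levels were the most even of the 7 genes, with 1.20-fold between lowest and highest. The neighbouring gene SLC25A1, on the same strand 609 bases beyond the 3′ end of CLTCL1, had 97, 178 and 112 reads with T12, T18 and T30 and 157, 179 and 81 with T18V, T18VN and T18VNN, so its unanchored and anchored counts overlapped.

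ENPP1 encodes the ectonucleotidase that makes extracellular pyrophosphate, an inhibitor of mineralisation. It lies on chromosome 6 (132129156 to 132216295, plus strand) with 1 entry of 7442 bases. It had 37 reads (11.3 CPM) with T12, 228 (43.8 CPM) with T18 and 33 (14.9 CPM) with T30. T18V gave 298 reads (106 CPM), T18VN 4054 (905 CPM) and T18VNN 1963 (546 CPM). The gap between the classes was narrow: T18V was 2.42 times T18, although T18VN was 8.53 times T18V. The log2 fold change was 4.27 (SE 0.75). It was 3.58 without T18VN and 5.12 without T18, each more than 1.5 times away in fold.

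KRT8P41 is a transcribed pseudogene of keratin 8 on chromosome 11 (9115910 to 9117737, plus strand). It had 32 reads (9.80 CPM) with T12, 42 (8.08 CPM) with T18 and 2 (0.903 CPM) with T30. T18V gave 46 reads (16.4 CPM), T18VN 4307 (961 CPM) and T18VNN 884 (246 CPM). T18V was only 1.67 times T12, and T18VN alone made up 78.6% of the anchored CPM, 58.7 times the level of T18V. Without T18VN the log2 fold change went from 5.80 (SE 1.19) to 4.15 (SE 1.02).

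The reads of KRT8P41 did not follow those of KRT8, the gene it was copied from, which encodes a type II keratin of simple epithelia. Over 1462 aligned bases of the reference transcripts, 89.7% were identical, on the same strand. KRT8 had 8 to 21 reads in the 6 HEK293T libraries, 8 of them in T18VN, where KRT8P41 had 4307. A549 showed the reverse order, with 1539 reads (1027 CPM) on KRT8 and 8 reads (5.34 CPM) on KRT8P41. No other copy of keratin 8 was listed among the genes with a symbol, and how reads with several matches were handled is not given in the sources used here.

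**Figure D2:**
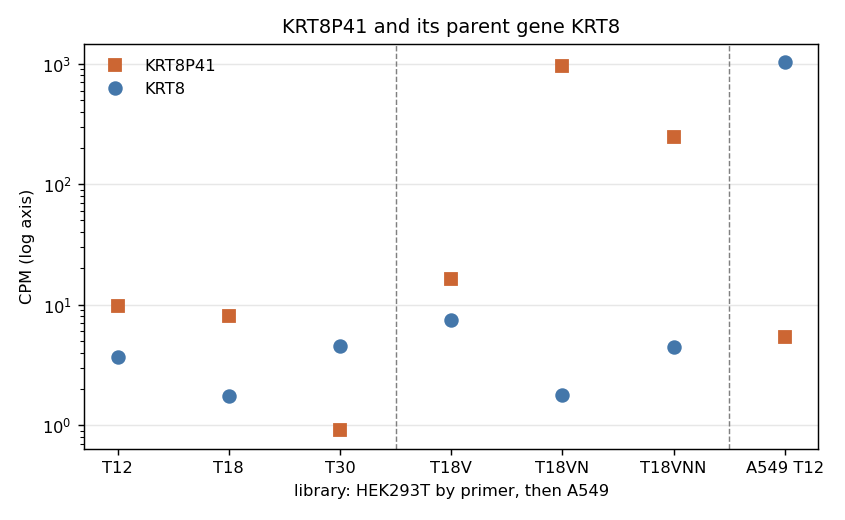
CPM on a log axis for KRT8P41 (orange squares) and KRT8 (blue circles), 1 point per library, in the 6 HEK293T libraries by primer and in A549 T12. KRT8P41 is at 961 CPM in T18VN where KRT8 is at 1.79 CPM, and in A549 KRT8 is at 1027 CPM and KRT8P41 at 5.34 CPM.

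FAM222A-AS1 is a long noncoding RNA on chromosome 12 (110172014 to 110211292, minus strand), whose 2 entries held the same reads. It had 1, 3 and 1 reads with T12, T18 and T30, at or under the detection floor in each library. It had 62 reads (22.1 CPM) in T18V, 32 (7.14 CPM) in T18VN and 41 (11.4 CPM) in T18VNN. Pooled over libraries, 135 of 10888340 gene reads against 5 of 10682391 gave a ratio of 26.5. The choice of the gene fixed the direction of this ratio, and pooling hides the spread between libraries. It is the only one of the 7 genes whose span overlaps another listed gene, FAM222A on the opposite strand (110152187 to 110208312). FAM222A had 60, 82 and 29 reads in the unanchored libraries and 61, 97 and 61 in the anchored ones. Without a stated use of strand, reads where exons of both genes overlap cannot be assigned to either, but the counts of FAM222A, unlike those of its antisense partner, overlapped between the classes.

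**Figure D3:**
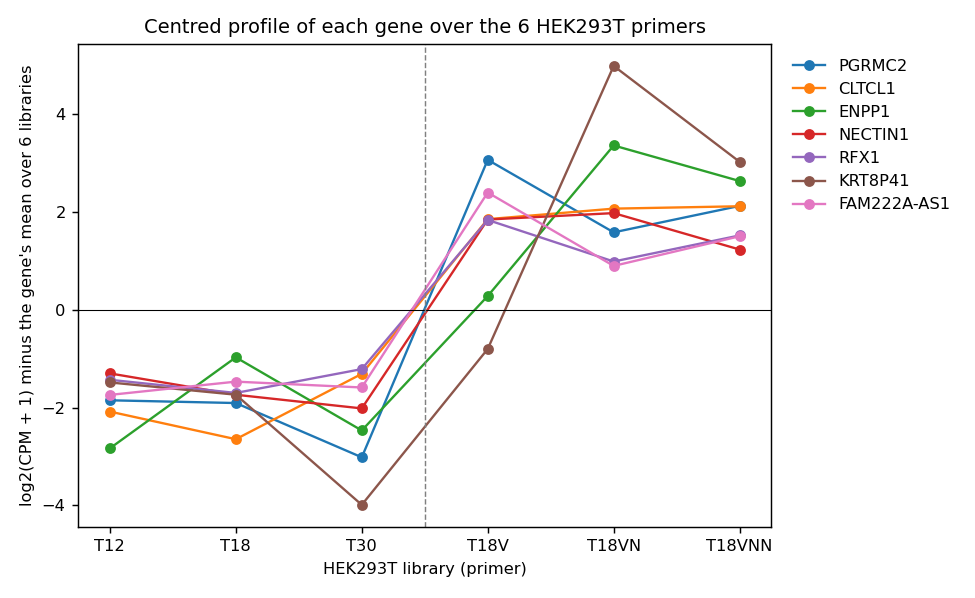
Centred profiles: log2(CPM + 1) of each gene minus its mean over the 6 HEK293T libraries, by primer, with lines joining the points of 1 gene and a dashed line between unanchored and anchored primers. KRT8P41 and ENPP1 peak at T18VN (4.99 and 3.36) and are lowest among anchored libraries at T18V, whereas PGRMC2 peaks at T18V (3.07).

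The 7 genes shared no order among the anchored primers. T18V was the highest library for PGRMC2, RFX1 and FAM222A-AS1, T18VN for ENPP1, NECTIN1 and KRT8P41, and T18VNN for CLTCL1. The first 3 of these genes had their lowest anchored level in T18VN, and ENPP1, KRT8P41 and CLTCL1 had theirs in T18V. Highest over lowest, the 3 anchored libraries differed 1.20-fold to 3.09-fold in 5 genes, 8.53-fold in ENPP1 and 58.7-fold in KRT8P41. Over 5798 genes with a mean of at least 20 CPM in the anchored libraries the median was 1.65-fold, 0.966% were at least as wide as ENPP1 and 0.0862% at least as wide as KRT8P41. With 1 library for each primer, a difference between anchors cannot be told apart from a difference between libraries.

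The closest pair of primers is T18 and T18V, which differ by the single anchor base. T18V was 32.5 times T18 for PGRMC2, 36.8 times for CLTCL1 and 38.2 times for FAM222A-AS1, the last on only 3 reads in T18. The ratio was 13.4 for NECTIN1 and 11.9 for RFX1. It was only 2.42 for ENPP1 and 2.03 for KRT8P41, where T18VN was 20.6 and 119 times T18. Of genes with 20 reads or more in either library of the pair, 16.2% were at least 2-fold higher in T18V than in T18, and 18.1% in T18VN. Both libraries took part in choosing the genes.

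The A549 T12 library, which took no part in the choice, asked whether the low levels with an unanchored primer recur in another cell line. In A549 PGRMC2 had 127 reads (84.8 CPM, 95% Wilson interval 71.3 to 100.8) and RFX1 129 reads (86.1 CPM, 72.5 to 102). Both lay above all 3 unanchored HEK293T libraries and below all 3 anchored ones. NECTIN1 had 20 reads (13.3 CPM, 8.64 to 20.6), slightly above HEK293T T12 and within its counting error.

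ENPP1 had 17 reads in A549 (11.3 CPM, 7.08 to 18.2), CLTCL1 6 reads (4.005 CPM, 1.84 to 8.74) and KRT8P41 8 reads (5.34 CPM, 2.71 to 10.5). All 3 lay inside the range of the unanchored HEK293T libraries. FAM222A-AS1 had 1 read, under the floor of 3, and FAM222A had 0 reads in A549. All 7 genes lay below the lowest anchored HEK293T library, by 2.89-fold for RFX1 to 14.1-fold for CLTCL1. The genes were picked for high levels in the anchored libraries, so a gap of this kind was partly built in. Of all tested genes 42.9% lay below the anchored libraries in this way, and of genes separated between the HEK293T classes 61.8%. A549 lay above all unanchored HEK293T libraries for 4 of the 7 genes, FAM222A-AS1 with its 1 read included, and for 49.7% of the separated genes. A549 was sequenced with T12 only, so these gaps hold both a primer and a cell line difference.

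Against HEK293T T12, the same primer, 1 of the 5 genes with at least 20 reads in either library differed at least 2-fold on log2(CPM + 1). This was PGRMC2, 2.77-fold higher in A549 by CPM. RFX1 was 1.89-fold higher, NECTIN1 1.21-fold higher and ENPP1 level at 1.00-fold, and KRT8P41 was at 0.545 times HEK293T T12. Over all 10145 genes with enough reads 60.2% differed at least 2-fold, in either direction. With 1 library per cell line there was no replicate check, and HEK293T T12 was among the libraries in which the genes were picked for few reads. Scaled to the authors' library totals, which moved the median log2 ratio of all genes from 0.02 to -0.26, PGRMC2 was at 0.98, just under the 2-fold limit.

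Genes of the same families were read from lists of 61 further genes, 42 of which passed the filter, to see whether they shared the pattern. The lists were written with earlier results of these data known. Only AP1B1 was called higher with anchored primers and none lower, where 1.35% of all tested genes were called in either direction. The median log2 fold change of the 42 was 0.07. Of these 42 genes, 7 had all anchored libraries above all unanchored ones and 4 had the opposite. Over all tested genes, 16.8% were separated in the first direction. AP1B1, the beta subunit of the AP-1 clathrin adaptor, had 522, 832 and 347 reads in the unanchored libraries and 3473, 1136 and 4185 in T18V, T18VN and T18VNN. This is a log2 fold change of 2.31 with an SE of 0.50 (Benjamini-Hochberg adjusted p = 0.0483 by the edgeR fit). That call did not hold in 5 of 6 fits that each left out 1 library, or with DESeq2's size factors in edgeR (adjusted p = 0.0503).

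PGRMC1, the closest relative of PGRMC2, stood at 38.9 ± 6.95 CPM (SD, n = 3) in the unanchored libraries and at 81.3 ± 25.7 CPM (SD, n = 3) in the anchored ones. Its log2 fold change of 0.89 (SE 0.36) did not pass the test (adjusted p = 0.256, edgeR). All its anchored libraries nevertheless lay above all its unanchored ones. Per kilobase of transcript, the order of the pair changed with the primer class, on the reads that chose PGRMC2. PGRMC1 had 20.3 and PGRMC2 6.43 CPM per kilobase without an anchor, and 42.4 and 158 CPM per kilobase with an anchor. In T12, T18, T30 and T18V, 59.2% to 64.7% of the coverage fell in the last 20 percentiles of transcripts. A level per kilobase is therefore only a rough measure here. NENF and CYB5D2, the other 2 of that family, had log2 fold changes of -0.37 and -0.28 and did not pass the test.

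CLTC, the ubiquitous clathrin heavy chain, stood at 301 ± 11.9 CPM (SD, n = 3) unanchored and 364 ± 34.5 CPM (SD, n = 3) anchored (log2 fold change 0.10, SE 0.27, adjusted p = 0.906, edgeR). All its anchored libraries lay above all its unanchored ones. The fold change is scaled between libraries by edgeR, whereas the CPM levels are not. Per kilobase, with the same limit, CLTC stood at 35.1 and 42.4 CPM and CLTCL1, chosen on these reads, at 0.587 and 11.5 CPM. PICALM, an assembly protein of clathrin coats, had the most reads of the clathrin list, at 550 ± 59.3 and 696 ± 134 CPM (SD, n = 3 each). It differed by 0.16 on the log2 scale (SE 0.28; adjusted p = 0.843, edgeR). Of the 21 further clathrin genes, 5 had all anchored libraries above all unanchored ones and 2 the opposite, against 16.8% of all tested genes in the first direction. HIP1 was among the 5, with a log2 fold change of 1.37 (SE 0.35) that did not pass the test (adjusted p = 0.0802, edgeR).

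In the other lists none of the tested genes was called. SLC20A2, a phosphate transporter and the most read gene of the ENPP1 list, had a log2 fold change of 0.47 (SE 0.38). The relatives ENPP2, ENPP6 and ENPP7 had 0 reads in every library, ENPP5 had 2 reads in T18 only, and ENPP3 had 17 reads in T18VNN only. ENPP4 had 4, 7 and 0 reads with T12, T18 and T30 and 11, 22 and 10 with T18V, T18VN and T18VNN, and did not pass the filter. CADM1, a nectin-like adhesion molecule, was at -1.37 (SE 0.37; adjusted p = 0.0943, edgeR), and its 3 anchored libraries lay below the 3 unanchored ones. RFX5, the most read of the further RFX genes, was at 0.07 (SE 0.40), KRT18 at -0.85 (SE 0.50) and FAM222B at 0.06 (SE 0.33).

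**Figure D4:**
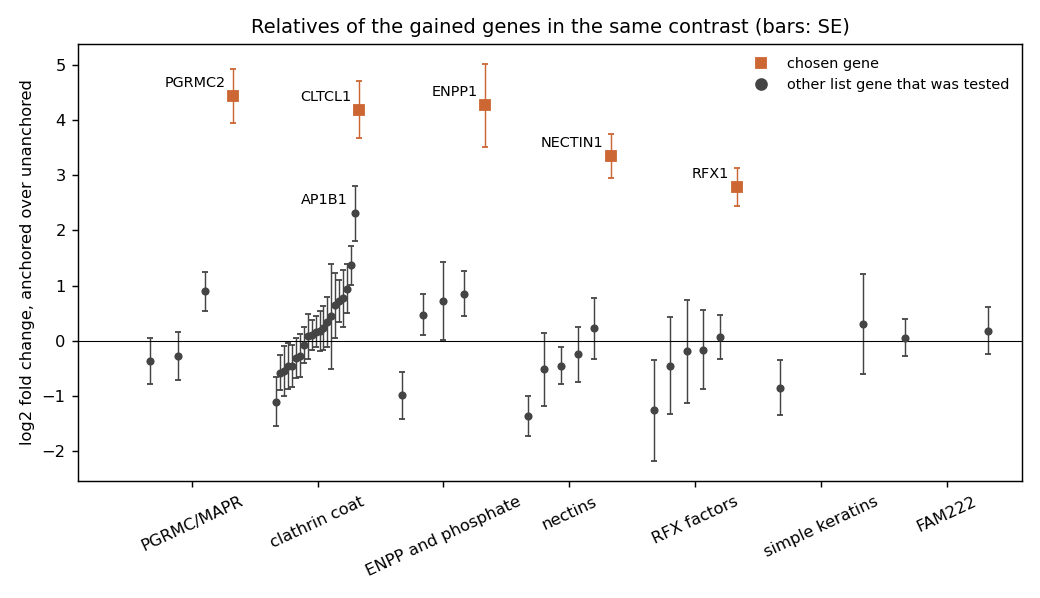
Log2 fold change, anchored over unanchored HEK293T libraries, with its SE as bars, for the chosen genes (orange squares) and the other list genes that were tested (dark circles), by family list. The 5 orange squares lie at 2.78 or higher, AP1B1 lies at 2.31 and the other dark circles lie between -1.37 and 1.37.

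Genes with the most similar profile were sought among 6290 further genes with a mean of at least 20 CPM in either class, by Pearson correlation over the 6 HEK293T libraries with the mean centred profile of the 7 genes. The 5 closest were ZNF746 (r = 0.997), PATZ1 (0.996), ROBO3 (0.995), ANAPC1 (0.992) and MRPL44 (0.990), on libraries that the choice of the 7 genes had used. Their shape was alike, and all 5 had log2 fold changes below 4.27, the median of the 7 genes. PATZ1, at 3.12, nevertheless lay above RFX1, at 2.78. ZNF746 had 14.7, 14.2 and 12.6 CPM without an anchor and 26.3, 33.3 and 31.7 CPM in T18V, T18VN and T18VNN, a log2 fold change of 0.96. PATZ1, a zinc finger transcription factor, came nearest in size with 4.59, 5.38 and 2.71 CPM and 30.2, 48.7 and 48.4 CPM, a log2 fold change of 3.12 (SE 0.48). ROBO3, ANAPC1 and MRPL44 had log2 fold changes of 1.78, 1.38 and 0.98.

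Leaving out the libraries that stood apart changed the size of the difference but not its direction, which the choice of the genes fixed. Without T18 the log2 fold changes were 4.61 for PGRMC2, 3.79 for CLTCL1, 5.12 for ENPP1, 3.29 for NECTIN1, 2.66 for RFX1, 6.02 for KRT8P41 and 4.90 for FAM222A-AS1. Without T18VNN they were 4.55, 4.11, 4.18, 3.52, 2.76, 6.01 and 4.72 in the same order. Library totals were lower in every anchored library and the share of reads on genes was higher, 27.7% to 37.5% against 11.7% to 20.3%; their part in the result was not tested.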

How the data were processed

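The authors deposited whole-number counts for each RefSeq transcript, in tables with the header layout of RSeQC's FPKM_count. The submitters' processing notes list FastQC 0.11.8, cutadapt 2.10, Trimmomatic 0.39, HISAT2 2.2.1 and SAMtools and the builds GRCh37 and hg19; strand setting and treatment of multiply matching reads are not given in the sources used here. The deposited FPM signal scales each count to a library total, which was recovered as count over FPM; the deposited coverage signal was used only to compare libraries, without the T18VN coverage table, whose row names match no label. Of 61177 entries 60133 (98.3%) matched a symbol in the RefSeq gene table (GRCh38.p14, names only), and the entry with most reads was kept per gene. The 3 anchored and 3 unanchored HEK293T libraries were fitted with edgeR 4.0.16 (R 4.3.3): filterByExpr, TMM, quasi-likelihood test, Benjamini-Hochberg adjustment at 0.05 over all genes tested. Each SE is the absolute log2 fold change divided by the square root of the F statistic of that fit. The TMM factors, 0.908 to 0.973 unanchored and 1.05 to 1.07 anchored, enter the fold changes but not the CPM levels or the separated shares. DESeq2 1.42.0 was an alternative. The edgeR script was tested on simulated data. A549 was compared at a pseudocount of 1 CPM and at least 20 reads in the higher library. Alignments used Biopython 1.88. Named genes were the 7 members, overlapping genes, called and most read genes of the family lists, and the 5 closest profiles. Neighbours, NENF, CYB5D2, CLTC, HIP1, CADM1, DCAF15, SLC25A1 and the untested ENPP genes were added after their values were seen. Members and lists were chosen with earlier results of these data known. The labels name biological replicates for T12 only, and just 1 T12 library of each line has gene counts. Nothing in the labels says that the fitted libraries came from separate cultures, so p-values measure only the spread between primers. PCR reads carry no molecular identifier here, so intervals and floors describe counting error alone.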

Additional observations from a re-analysis of the deposited data

How the results depend on the processing

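The number of genes called between the primer classes was 147 (85 higher, 62 lower). It was 581 with DESeq2 (281 higher, 300 lower) and 556 without the low-count filter (283 higher, 273 lower). It was 46 to 111 when each HEK293T library was left out, and lower calls were then the majority without T12 (41 higher, 66 lower), T18 (39 and 46), T30 (19 and 35) and T18VNN (19 and 27), but not without T18V (34 and 29) or T18VN (56 and 55). Scaling to the authors' library totals gave 2257 calls, 2206 of them higher, and moved the median log2 fold change of all genes to 1.08. Relative to that median the 7 genes were 2.88 to 5.55 higher. Over 11 alternatives the log2 fold change of the 7 genes kept its direction, which their choice fixed. Among fits that each left out 1 library, the call was lost in 5 for KRT8P41, 5 for FAM222A-AS1 and 4 for ENPP1. It was lost in 0 for each of the other members, which supports nothing for them, since all 7 genes were chosen on these libraries. Of the 5 members with at least 20 reads in either T12 library, 0 were at least 2-fold apart between A549 and HEK293T with the authors' library totals. ENPP1, level in both lines, was then at -0.23, at -0.21 with TMM and at -0.011 with the largest transcript per gene. NECTIN1 was at -0.053 with the authors' totals. Relative to the median of all genes in the same settings, ENPP1 was at 0.035, -0.012 and -0.026, and NECTIN1 at 0.21. The cause was not tested beyond these scalings. Runs of at least 12 A were found in 1 of the 7 transcripts and in 19.2% of the tested genes. No paired analysis was possible because the HEK293T and A549 T12 libraries with gene counts carry different replicate numbers and no other primer has more than 1 library. Counts of 1 to 3 reads limit what can be said of FAM222A-AS1 without an anchor.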
